A study of Mus musculus with 12 samples.

Results

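The guanylate-binding proteins (GBPs) and the immunity-related GTPases (IRGs) are 2 families of GTP-hydrolysing proteins that interferons switch on. Of 10 gene symbols chosen for these families, 8 were found by their symbol among the 40481 genes of the deposited table, each with 1 gene ID: Gbp2, Gbp3, Gbp7 and Gbp9 of the GBPs, and Irgm1, Irgm2, Igtp and Iigp1 of the IRGs. Gbp5 and Gbp6 were not matched by symbol and are not analysed here. All 8 passed the filter on low values, at least 1 CPM (reads of the gene per 1000000 reads of its library) in at least 3 of 12 libraries, which 14271 genes passed.

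RNA was sequenced from mouse hematopoietic stem cells (HSCs) in 4 groups of 3 libraries. The groups were wild-type (WT) cells of E14.5 fetal liver, WT cells of bone marrow of mice aged 8 weeks, and cells with ETV6-RUNX1 (called iE/R in the series text) from each of these sources. ETV6-RUNX1 is a fusion transcription factor gene of childhood B-cell leukemia. All cells of all 4 groups, WT included, had been sorted and kept for 3 days in expansion culture with 1 µg/mL doxycycline, a drug used to switch inducible transgenes on. The labels do not give the promoter of the transgene, the number or sex of the animals behind a library, or whether replicates were separate animals, so p-values measure the spread between these libraries.

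Library totals ran from 32.3 M to 64.5 M reads, so that 1 CPM stood for at least 32.3 reads, and a floor of 3 reads equalled 0.0465 to 0.0928 CPM. All 10 markers of HSCs and other progenitors examined, among them Cd34, Flt3 and Cd48, reached the filter. They summed to 1736 to 2563 CPM in the WT libraries and 2768 to 3981 CPM in the ETV6-RUNX1 libraries. This sum does not tell HSCs from other progenitors. Runx1 and Etv6, the partners of the fusion, were higher in the ETV6-RUNX1 libraries of each source (Runx1 218 to 244 CPM against 110.4 to 136 CPM in fetal liver, and 143 to 194 CPM against 86.7 to 105 CPM in bone marrow). Of 10 markers of T and NK cells, the main makers of interferon gamma, 8 were below the filter. Cd3e, Gzma and Prf1 of these had no read in any library, and the summed level of the 10 was 0.928 to 4.33 CPM over the 12 libraries. Of 8 macrophage markers, 5 passed the filter, with C1qa, C1qb and Marco below it. All 8 together summed to 37.1 to 57.7 CPM in the WT libraries and 90.9 to 130.04 CPM in the ETV6-RUNX1 libraries. Of 5 markers of plasmacytoid dendritic cells, Siglech, Ccr9 and Ly6d were below the filter, and the sum ran from 203.9 to 328 CPM in WT and 418 to 1017 CPM in ETV6-RUNX1 libraries, carried by Bst2 and Tcf4. The 5 megakaryocyte markers, all above the filter, summed to 2977 to 4324 CPM in WT and 6645 to 7406 CPM in ETV6-RUNX1 fetal liver, and to 1347 to 1766 and 471 to 1924 CPM in bone marrow. Of 5 erythroblast markers, 4 passed the filter (not Alas2), and the sum was 57.0 to 76.3 CPM in WT and 142 to 187 CPM in ETV6-RUNX1 fetal liver, and 22.6 to 49.3 and 44.3 to 52.1 CPM in bone marrow. The 5 endothelial markers, all above the filter, summed to 102 to 141 and 235 to 316 CPM in fetal liver, and to 101 to 159 and 135 to 162 CPM in bone marrow. The part of these cell types in the results below was not tested. In bulk RNA, fewer cells that express a gene and less RNA per cell cannot be told apart.

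As background, interferon gamma acts through its receptor, the kinases JAK1 and JAK2 and promoter elements called gamma-activated sites. Type I interferons (alpha and beta) act through another receptor, STAT2 and IRF9 and promoter elements called interferon-stimulated response elements. Both routes raise GBPs and IRGs. The IRG effectors, such as Iigp1, and the GBPs coat the vacuoles in which parasites and bacteria live and break them open, while the regulatory IRGs, Irgm1, Irgm2 and Igtp (also called Irgm3), hold the effectors inactive on the cell's own membranes. Mouse HSCs are known to respond to interferons, and Irgm1 is known to be needed for normal HSC function in mice.

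The promoters are shown because the 8 genes changed together. RefSeq promoter windows (build GRCm38.p6, 250 bases before to 50 after the annotated start) were at hand for 6 of the 8. Capitals mark matches, on either strand, to the core of the response element (GAAA, any 2 bases, GAAA) and to the gamma-activated site, TTCNNNGAA, in the 120 bases before the start:
Gbp2: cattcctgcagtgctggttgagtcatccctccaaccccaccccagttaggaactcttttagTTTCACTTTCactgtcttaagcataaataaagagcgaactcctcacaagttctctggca
Gbp3: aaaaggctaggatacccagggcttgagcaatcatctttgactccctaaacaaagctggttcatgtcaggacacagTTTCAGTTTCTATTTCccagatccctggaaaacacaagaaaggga
Gbp7: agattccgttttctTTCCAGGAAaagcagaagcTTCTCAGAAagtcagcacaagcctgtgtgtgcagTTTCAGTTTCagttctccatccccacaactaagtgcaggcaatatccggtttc
Irgm1: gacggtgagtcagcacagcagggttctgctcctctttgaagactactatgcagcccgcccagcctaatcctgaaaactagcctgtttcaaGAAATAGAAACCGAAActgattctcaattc
Irgm2: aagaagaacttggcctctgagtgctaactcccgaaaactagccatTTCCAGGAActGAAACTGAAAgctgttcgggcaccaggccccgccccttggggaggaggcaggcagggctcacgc
Igtp: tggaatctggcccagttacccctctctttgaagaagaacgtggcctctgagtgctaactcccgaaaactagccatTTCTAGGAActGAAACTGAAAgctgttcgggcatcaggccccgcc
They lie at chr3:142620543-142620662, plus strand for Gbp2, chr3:142559924-142560043, plus strand for Gbp3, chr3:142530216-142530335, plus strand for Gbp7, chr11:48871421-48871540, minus strand for Irgm1, chr11:58214857-58214976, plus strand for Irgm2 and chr11:58199436-58199555, plus strand for Igtp.

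The response element core was matched in all 6 windows, and 3.99% of the 27025 genes with a RefSeq promoter window hold it (1079 genes). The match nearest to the start began 24 bases before it in Irgm1, 34 in Igtp, 39 in Gbp3, 53 in Gbp7, 59 in Gbp2 and 64 in Irgm2. Gbp3 and Irgm1 each have 2 overlapping matches, shown as 1 run of capitals. The 3 GBP promoters carry the element with its TTTC repeats and the 3 IRG promoters with its GAAA repeats in the direction of the gene. A second annotated start of Gbp3 has no match to either motif. The gamma-activated site was matched in Gbp7 (2 times), Irgm2 and Igtp, and in 9.55% of all genes with a window. In Irgm2 and Igtp it stands just before the response element, and these promoters are near copies, with 87 of 90 aligned bases identical. Of 10 other GTPases of the families with a window, 6 had the response element core. A match describes the letters and is not evidence of binding.

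**Figure D1:**
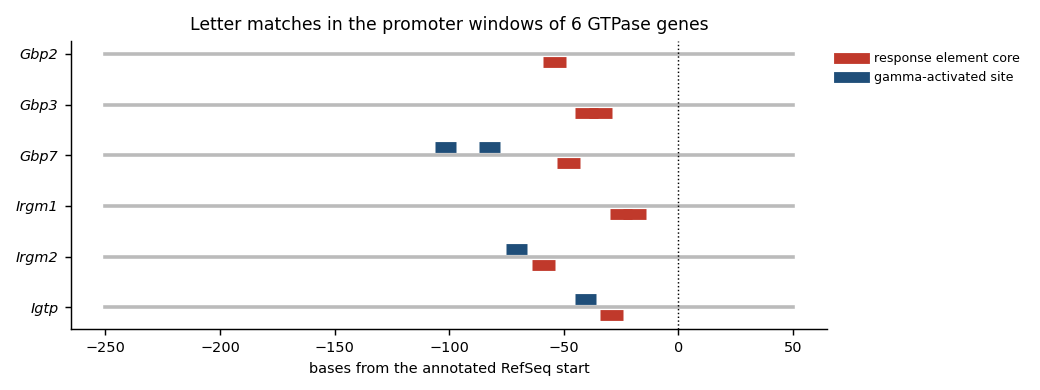
Matches to the response element core (red) and the gamma-activated site (blue) in the promoter windows of 6 GTPase genes, against the distance in bases from the annotated start (dotted line). All 6 windows have a red match between 64 and 24 bases before the start, and Gbp7, Irgm2 and Igtp have blue ones.

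The first comparison asked what the fusion changes in each source. All 8 GTPase genes rose in ETV6-RUNX1 cells, in fetal liver and in bone marrow, and their order of levels was the same: lowest in WT fetal liver, then WT bone marrow, then ETV6-RUNX1 bone marrow, and highest in ETV6-RUNX1 fetal liver. The test was limma on log2(CPM + 1), two-sided, and a call is a Benjamini-Hochberg adjusted p under 0.05 over all genes tested. In fetal liver 8 of 8 were called higher, against 24.8% of all tested genes, with a median log2 fold change of 4.34 (0.08 over all tested genes). In bone marrow 8 of 8 were called higher, against 14.4% of tested genes, with a median of 1.60 (0.13 over all). The ETV6-RUNX1 libraries lay above the WT libraries of their source without overlap for 8 of 8 genes in both, against 32.3% of tested genes in fetal liver and 23.6% in bone marrow. All 16 calls held under the 22 alternatives run for each.

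**Figure D2:**
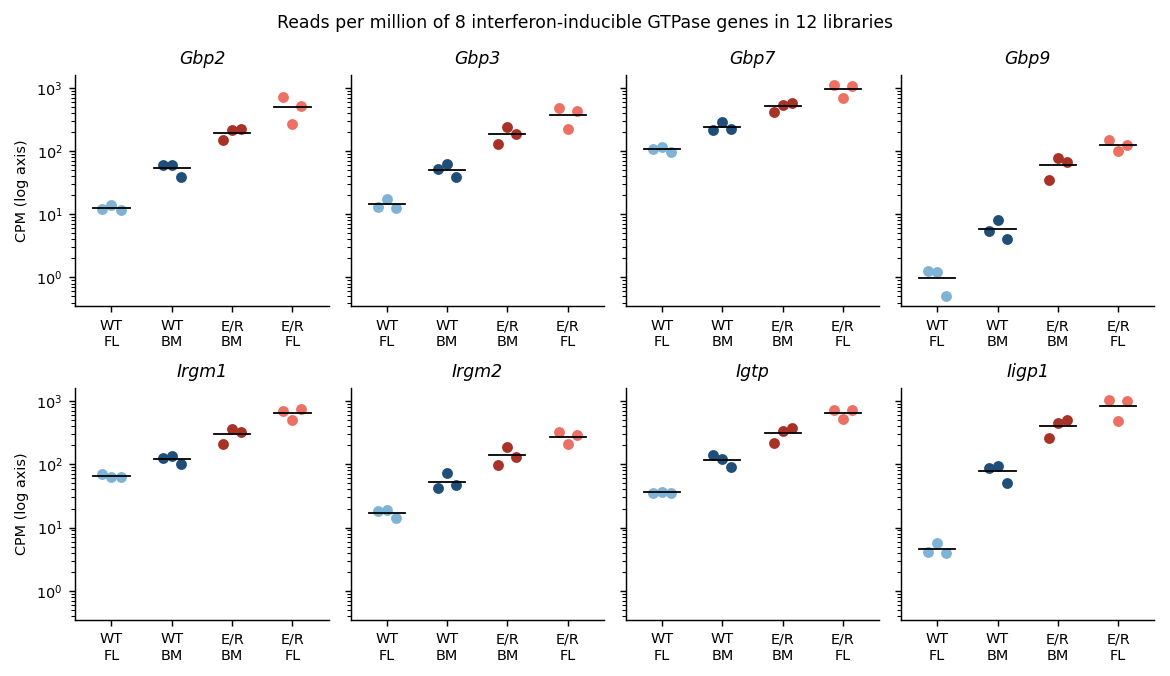
CPM on a log axis of the 8 GTPase genes in the 12 libraries, by group (WT or ETV6-RUNX1, written E/R; FL, fetal liver; BM, bone marrow); points are libraries, replicates 1 to 3 from left to right, and lines are group means. In every panel the group means climb from left to right, and all ETV6-RUNX1 points lie above all WT points.

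Iigp1 (also called Irga6, ENSMUSG00000054072, chromosome 18, 60376027 to 60392634, plus strand) is an IRG effector that loads onto parasite vacuoles. Its level was 4.13, 5.71 and 3.92 CPM in WT fetal liver replicates 1 to 3 and 86.5, 94.7 and 50.5 CPM in WT bone marrow. It was 1038, 492 and 986 CPM in ETV6-RUNX1 fetal liver and 257, 457 and 506 CPM in ETV6-RUNX1 bone marrow. The WT fetal liver libraries stand far below the other 9, and the ranges of the ETV6-RUNX1 groups overlap each other. The ratio of means was 183 in fetal liver (log2 fold change 7.17 ± 0.31 SE, limma adjusted p 1.67e-09), and this log2 fold change ranked 7th from the top among the 14271 genes. In bone marrow the ratio was 5.27 (2.37 ± 0.31 SE, limma adjusted p 0.000341).

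Irgm1 (ENSMUSG00000046879, chromosome 11, 48861968 to 48871683, minus strand), a regulatory IRG, was 70.3, 62.3 and 62.8 CPM in WT fetal liver and 126, 135 and 102 CPM in WT bone marrow. In ETV6-RUNX1 cells it was 699, 499.7 and 738 CPM in fetal liver and 210.0, 357 and 324 CPM in bone marrow. No group overlapped another. The rise was 9.91-fold in fetal liver (log2 fold change 3.27 ± 0.20 SE, limma adjusted p 2.44e-08) and 2.46-fold in bone marrow (1.26 ± 0.20 SE, adjusted p 0.000978). These were among the smaller changes of the 8 genes.

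Igtp (ENSMUSG00000078853, chromosome 11, 58199556 to 58207591, plus strand), a regulatory IRG of the endoplasmic reticulum, had the tightest replicates of the 8 in WT fetal liver, at 35.7, 37.0 and 35.4 CPM, and 138, 119.7 and 92.3 CPM in WT bone marrow. It reached 722, 524 and 727 CPM in ETV6-RUNX1 fetal liver and 217, 334 and 381 CPM in ETV6-RUNX1 bone marrow. The 4 groups did not overlap. Its rise was 18.3-fold in fetal liver (log2 fold change 4.14 ± 0.20 SE, limma adjusted p 5.64e-09) and 2.66-fold in bone marrow (1.38 ± 0.20 SE, adjusted p 0.000715). Irgm2 (ENSMUSG00000069874, chromosome 11, 58199618 to 58222782, plus strand), the third regulatory IRG, was 18.1, 19.1 and 14.2 CPM in WT fetal liver and 41.7, 71.7 and 47.0 CPM in WT bone marrow. It was 323, 210.0 and 286 CPM in ETV6-RUNX1 fetal liver and 99.1, 188 and 131 CPM in ETV6-RUNX1 bone marrow. Its groups did not overlap either, and it rose 16.0-fold (3.91 ± 0.25 SE, limma adjusted p 3.52e-08) and 2.61-fold (1.36 ± 0.25 SE, adjusted p 0.00247). The GENCODE M21 models of Igtp and Irgm2 overlap on the same strand and share 162 exon bases, which are 8.01% of those of Igtp and 4.39% of those of Irgm2, so a small part of their reads cannot be told apart.

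Gbp2 (ENSMUSG00000028270, chromosome 3, 142620602 to 142638008, plus strand), a lipid-anchored GBP that gathers on vacuoles, was 11.9, 14.0 and 11.5 CPM in WT fetal liver and 60.9, 60.1 and 38.3 CPM in WT bone marrow. It was 724, 265 and 513 CPM in ETV6-RUNX1 fetal liver and 149, 214 and 219.8 CPM in ETV6-RUNX1 bone marrow. The groups did not overlap, although the ETV6-RUNX1 fetal liver libraries spread widely, with a coefficient of variation of 46%. The ratio of means was 40.1 in fetal liver (log2 fold change 5.11 ± 0.29 SE, limma adjusted p 1.56e-08) and 3.66 in bone marrow (1.86 ± 0.29 SE, adjusted p 0.00104).

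Gbp3 (ENSMUSG00000028268, chromosome 3, 142560026 to 142573209, plus strand) and Gbp7 (ENSMUSG00000040253, chromosome 3, 142530342 to 142550149, plus strand) belong to the same gene cluster as Gbp2. Gbp3 was 13.1, 17.6 and 12.6 CPM in WT fetal liver, 51.7, 61.5 and 39.5 CPM in WT bone marrow, 476, 223 and 426 CPM in ETV6-RUNX1 fetal liver and 129, 239.8 and 188 CPM in ETV6-RUNX1 bone marrow. Only its 2 ETV6-RUNX1 groups overlapped, through fetal liver replicate 2, and it rose 26.0-fold in fetal liver (log2 fold change 4.55 ± 0.28 SE, limma adjusted p 2.67e-08) and 3.65-fold in bone marrow (1.82 ± 0.28 SE, adjusted p 0.000872). Gbp7, which is known to support the phagocyte oxidase, was already 108, 117 and 95.9 CPM in WT fetal liver and 217, 287 and 226 CPM in WT bone marrow. It was 1105, 685 and 1076 CPM in ETV6-RUNX1 fetal liver and 409, 542 and 578 CPM in ETV6-RUNX1 bone marrow, with no overlap between groups. Its rises, 8.93-fold (3.12 ± 0.19 SE, limma adjusted p 2.63e-08) and 2.10-fold (1.06 ± 0.19 SE, adjusted p 0.00241), had the lowest log2 fold changes of the 8 genes in both sources. The model of another gene on the same strand, Gm43802, overlaps that of Gbp7, and 9.59% of the 100-base windows of Gbp7 are shared with Gm43802.

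Gbp9 (ENSMUSG00000029298, chromosome 5, 105077630 to 105139539, minus strand), of a second GBP cluster, was nearly silent in WT fetal liver, at 1.25, 1.20 and 0.512 CPM, where its fewest reads were 33. It was 5.35, 8.12 and 4.09 CPM in WT bone marrow, 148, 101 and 124 CPM in ETV6-RUNX1 fetal liver and 35.2, 78.2 and 67.6 CPM in ETV6-RUNX1 bone marrow. The groups did not overlap. The ratio of means was 126 in fetal liver (log2 fold change 5.99 ± 0.29 SE, limma adjusted p 5.64e-09) and 10.3 in bone marrow (3.13 ± 0.29 SE, adjusted p 3.11e-05). The added 1 CPM understates the change of so low a gene, and with 0.1 CPM in its place the fetal liver log2 fold change of Gbp9 was 6.91. The models of Gbp8 and Gbp4 overlap that of Gbp9 on the same strand, and 1.65% of its 100-base windows occur in another gene. No window of 100 bases of Gbp2, Irgm1 or Iigp1 was shared with the transcripts of any other gene, and 0.694% of those of Gbp3 were shared with Gbp7.

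The size of the change differed among the 8 genes, and levels can be set side by side only per length of exon. In WT fetal liver, Gbp9 (0.191 ± 0.0802 CPM per kb, mean ± SD, n = 3) and Iigp1 (0.788 ± 0.167 CPM per kb) had the lowest levels and, in the same libraries, the largest fold changes. The highest were Gbp7 (19.0 ± 1.85 CPM per kb), Igtp (17.8 ± 0.414 CPM per kb) and Irgm1 (11.2 ± 0.771 CPM per kb), of which Gbp7 and Igtp overlapped. Between these lay Gbp2, Irgm2 and Gbp3 at 4.96, 4.64 and 4.42 CPM per kb, which overlapped one another in that order. In ETV6-RUNX1 fetal liver Igtp was highest (325 ± 57.2 CPM per kb), and Gbp9 was lowest (24.1 ± 4.52 CPM per kb). Iigp1 moved from 7th of 8 in both WT groups to 4th in both ETV6-RUNX1 groups (144 ± 51.7 CPM per kb in fetal liver), while Irgm1 moved from 3rd in WT fetal liver to 6th in both ETV6-RUNX1 groups. Of these ranks, those in WT fetal liver were apart from their neighbours; Iigp1 overlapped Irgm2 above it in WT bone marrow, and Iigp1 and Irgm1 overlapped both neighbours in the ETV6-RUNX1 groups. A fold change and a WT level share the WT libraries, so this relation is a description.

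The effects in the sources were then compared directly. The genotype effect was larger in fetal liver for every one of the 8 genes, and the interaction (effect in fetal liver minus effect in bone marrow) was called for 8 of 8, against 5.56% of tested genes called in that direction. Its median over the 8 was 2.74 on the log2 scale, against -0.05 over all tested genes, and all 8 calls held under the 21 alternatives. Iigp1 had the largest difference (4.80 ± 0.44 SE, limma adjusted p 2.59e-05), 6th from the top among the tested genes. Gbp2 followed (3.24 ± 0.41 SE, adjusted p 0.000304), and Irgm1 had the smallest (2.01 ± 0.28 SE, limma adjusted p 0.000584). The sources also differ in the age and, by the Xist levels given below, the sex of the animals, which cannot be told apart from the source here.

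Each genotype was then compared between the sources. Among WT cells, all 8 genes were lower in fetal liver than in bone marrow (8 of 8 called, against 7.77% of tested genes called lower), without overlap of the libraries (18.9% of tested genes). Iigp1 was 16.8-fold lower (log2 fold change -3.77 ± 0.31 SE, limma adjusted p 3.08e-06), Gbp9 5.91-fold and Gbp2 4.25-fold lower by the ratio of means. Irgm1 was 1.86-fold lower (-0.87 ± 0.20 SE, limma adjusted p 0.00963). The call of Irgm1 was lost without WT bone marrow replicate 2 (adjusted p 0.0555) and with all genes with reads in the fit (0.0504).

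Among ETV6-RUNX1 cells the order of the sources was the opposite, and all 8 genes were called higher in fetal liver, against 10.4% of tested genes. Here the 8 genes differed little from each other, with ratios of means from 1.87 for Gbp7 to 2.57 for Gbp2, while in WT the ratio of bone marrow to fetal liver ran from 1.86 to 16.8. The libraries did not overlap for 6 of 8 genes (14.4% of tested genes), with Gbp3 and Iigp1 the exceptions. These calls rested more on single libraries. Without ETV6-RUNX1 bone marrow replicate 1 the calls of Gbp3, Gbp9 and Iigp1 were lost (limma adjusted p 0.085, 0.0643 and 0.118), as they were without fetal liver replicate 1 (0.0874, 0.0608 and 0.107). Without fetal liver replicate 3 those of Gbp3 and Iigp1 were lost (0.0642 and 0.0871). Xist was 0.175 to 1.27 CPM in the bone marrow and 51.7 to 89.3 CPM in the fetal liver libraries. In both comparisons, and in every interaction, the source, the age and the sex of the animals therefore cannot be told apart.

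**Figure D3:**
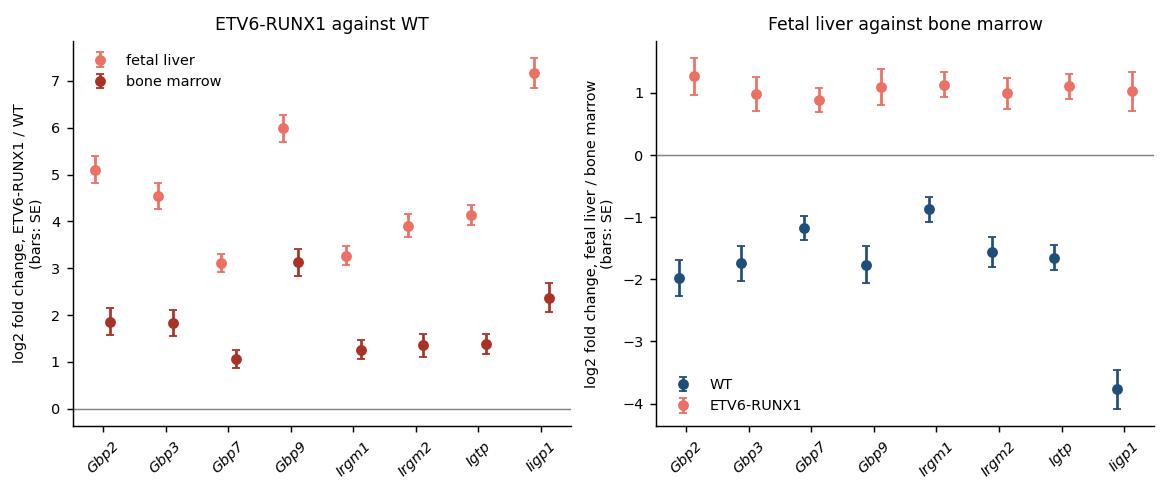
Log2 fold changes with SE bars from the fit of 12 libraries, for ETV6-RUNX1 against WT in each source (left) and for the sources compared within each genotype (right). On the left every fetal liver point lies above its bone marrow point; on the right the WT values run from -3.77 to -0.87 and the ETV6-RUNX1 values from 0.89 to 1.26.

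For 6 of the 8 genes (Gbp2, Gbp7, Gbp9, Irgm1, Irgm2 and Igtp) the 4 groups formed 4 steps with no overlap between neighbours, in the order WT fetal liver, WT bone marrow, ETV6-RUNX1 bone marrow and ETV6-RUNX1 fetal liver. Such a pattern was found in 0.967% of tested genes. The first 3 groups were apart in all 8 (6.38% of tested genes), and the group means had this order in all 8 (11.4%).

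The summed level of the 8 genes was 258 ± 18.9 CPM in WT fetal liver, 722 ± 119 CPM in WT bone marrow, 2104 ± 519 CPM in ETV6-RUNX1 bone marrow and 4370.3 ± 1201 CPM in ETV6-RUNX1 fetal liver (mean ± SD, n = 3). This is a rise of 17.0-fold in fetal liver and 2.92-fold in bone marrow. The make-up of the sum shifted as well. Iigp1 gave 1.77% ± 0.276 of the summed reads in WT fetal liver and 18.8% ± 2.10 with the fusion, and 10.5% ± 1.85 and 19.1% ± 2.02 in the matching bone marrow groups. Gbp7 gave 41.4% ± 1.08, 22.0% ± 0.863, 33.9% ± 3.94 and 24.6% ± 2.37 in the same order, and Irgm1 gave 25.3% ± 2.22, 15.0% ± 1.66, 16.8% ± 0.580 and 14.1% ± 0.653. For these 3 genes the mean shares of the ETV6-RUNX1 groups lay closer to each other than those of the WT groups.

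**Figure D4:**
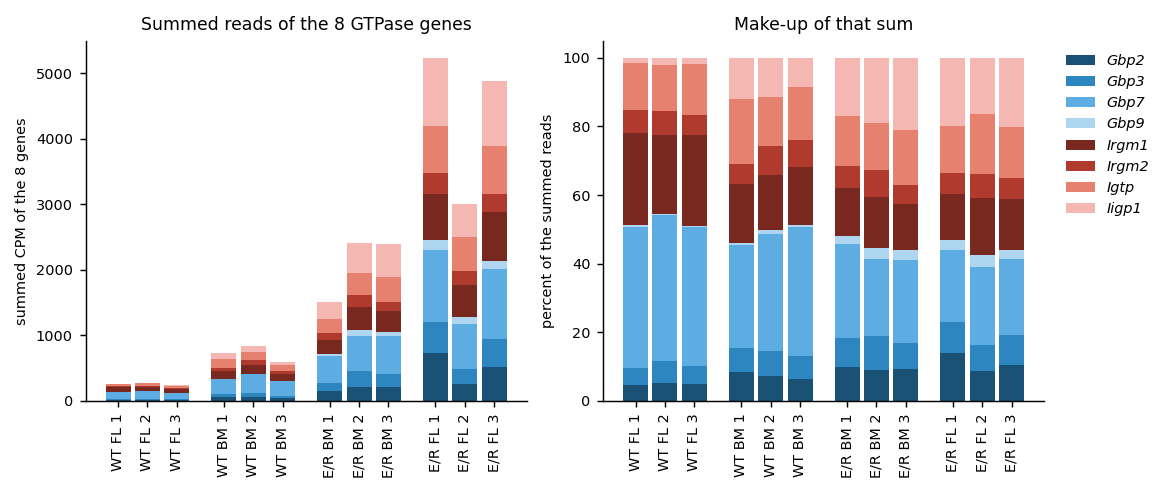
Summed CPM of the 8 GTPase genes in each library (left) and the percent of that sum given by each gene (right); FL is fetal liver, BM bone marrow and E/R ETV6-RUNX1, with the replicate number. The sums run from 237 CPM in WT fetal liver replicate 3 to 5234 CPM in ETV6-RUNX1 fetal liver replicate 1, and the Iigp1 segment is widest in the ETV6-RUNX1 libraries.

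Within the ETV6-RUNX1 groups the same library was lowest for all 8 genes, which was not so in the WT groups. ETV6-RUNX1 fetal liver replicate 2 was the lowest of its group for 8 of 8 genes, with a sum of 2999 CPM against 5234 and 4877 CPM, and ETV6-RUNX1 bone marrow replicate 1 was the lowest of its group for 8 of 8, at 1505 CPM against 2412 and 2396 CPM. In WT fetal liver, replicate 3 was lowest for 7 of 8 and replicate 2 for Irgm1, and in WT bone marrow replicate 3 was lowest for 6 of 8 and replicate 1 for Gbp7 and Irgm2, while replicate 1 was highest for Gbp2 and Igtp. Over the 12 libraries the pairwise Pearson correlations of log2(CPM + 1) among the 8 ran from 0.95 (Irgm1 with Iigp1) to 0.996 (Gbp2 with Gbp3), a description that includes the differences between groups. The 5 genes averaging 5 CPM or more whose profile was most like the mean of the 8 were Gm12185, also on the list of other GTPases below (r = 0.999), Ifi44 (0.998), Trim12a (0.997), Ddx60 (0.996) and Oasl2 (0.996). They are described by this measure only, over the same 12 libraries.

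Of the other GTPases of the families, with the related Mx and atlastin genes, most rose in both sources. Of 24 tested of 27 listed, 21 were called higher in fetal liver and 20 in bone marrow, against 24.8% and 14.4% of all tested genes. None of the 24 was called lower in either (18.3% and 4.93% of tested genes were called lower), and 19 had a called larger effect in fetal liver (5.56% of tested genes). The median log2 fold change was 4.06 in fetal liver and 1.75 in bone marrow (0.08 and 0.13 over all tested genes, here and for the lists below). F830016B08Rik, an Iigp1 relative, went from 0.451 ± 0.0568 to 108 ± 46.0 CPM in fetal liver (log2 fold change 6.13 ± 0.32 SE, limma adjusted p 7.57e-09), and Gm4951 from 4.07 ± 0.948 to 333 ± 103 CPM (adjusted p 9.63e-09). The added 1 CPM understates the change of F830016B08Rik, as it does for Gbp9. Gm12185 (5.39), Tgtp2 (4.46), Gbp8 (4.43) and the giant GTPase Gvin1 (3.90) rose as well. Tgtp2 shares 76.8% of its 100-base windows with Tgtp1, and 97.8% of those of Gvin1 occur in other genes, so the split of their reads is uncertain. Gvin1 shares 96.7% with Gm4070, and 9930111J21Rik1 shares 69.4% with 9930111J21Rik2. The counts above hold both genes of each such pair, so these are not separate observations. They also hold Gbp11, Gm12250 and Gm8995, which are annotated as kinds of pseudogene. The 3 not called in fetal liver, named for that result, were Irgq (5.10 ± 1.13 and 6.70 ± 0.580 CPM), Atl1 and Atl2, with log2 fold changes of 0.35, 0.43 and 0.27.

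In the signalling chain above these genes, the interferon gene Ifnb1 was detected mainly in ETV6-RUNX1 fetal liver. Its level was 2.5001, 2.53 and 4.89 CPM there, 0.108, 0.309 and 0.124 CPM in ETV6-RUNX1 bone marrow, 0.0865, 0 and 0 CPM in WT fetal liver and 0.0762, 0 and 0 CPM in WT bone marrow. It was called higher in fetal liver (limma adjusted p 3.99e-06) and not in bone marrow (0.526), and the difference between the sources was called (0.00164, but 0.152 with edgeR). Ifng had no read in 11 of 12 libraries and 2 reads in WT fetal liver replicate 2, which is under the floor. Of 22 tested of 32 listed signalling genes, 16 were called higher in fetal liver and 13 in bone marrow, against 24.8% and 14.4% of all tested genes. The list medians were 0.94 and 0.80. None of the 22 was called lower in either source, against 18.3% and 4.93% of all tested genes. Under alternatives 1 was called lower, in fetal liver with all genes with reads or with array weights, and in bone marrow with DESeq2. The bone marrow count was 8 without WT replicate 1, 7 without ETV6-RUNX1 replicate 1 and 7 without ETV6-RUNX1 replicate 2.

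The receptors and the factors below them were compared in both sources. Ifngr1 rose from 60.2 ± 1.47 to 89.7 ± 4.40 CPM in fetal liver (log2 fold change 0.57 ± 0.12 SE, limma adjusted p 0.00211), and Ifnar1 from 28.5 ± 4.65 to 51.0 ± 5.40 CPM (0.83 ± 0.19 SE, adjusted p 0.00281). Ifngr2 (0.86 ± 0.35 SE, limma adjusted p 0.0584) and Ifnar2 (0.49 ± 0.39 SE, 0.329) were not called in fetal liver. In bone marrow the log2 fold changes were 0.43 for Ifngr1 and 1.27 for Ifngr2, both called (limma adjusted p 0.0276 and 0.0207, under 15 and 18 of 22 alternatives), and 0.53 for Ifnar1 and 1.15 for Ifnar2, not called (0.0625 and 0.0506). Leaving out ETV6-RUNX1 bone marrow replicate 1 or 2 ended both calls (limma adjusted p 0.0817 and 0.103 for Ifngr1, 0.067 and 0.0946 for Ifngr2), as did WT replicate 3 for Ifngr1 (0.0957) and WT replicate 1 for Ifngr2 (0.0654). Stat2 and Irf9, which act together in type I interferon signalling, and Irf1, an interferon-induced factor, rose by 4.10, 2.31 and 2.52 in fetal liver (limma adjusted p 2.19e-08, 1.72e-07 and 6.18e-07) and 2.14, 1.04 and 1.16 in bone marrow on the log2 scale. Usp18, a brake on type I interferon signalling, rose by 4.72 and 1.57; its bone marrow call was lost without ETV6-RUNX1 replicate 2 (limma adjusted p 0.0535) and with all genes with reads in the fit (0.0551). The effects on Stat2, Irf1, Irf9 and Usp18 were called larger in fetal liver, with interactions of 1.96, 1.36, 1.27 and 3.15. That of Irf1 was not called with all genes with reads in the fit (limma adjusted p 0.0585).

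Of 19 tested of 22 genes known to respond to interferon gamma, 16 were called higher in fetal liver (median log2 fold change 2.56) and 14 in bone marrow (0.93), against 24.8% and 14.4% of all tested genes. For 12 of the 19 the effect was called larger in fetal liver, against 5.56% of all tested genes. None of the 19 was called lower with the fusion, against 18.3% of all tested genes in fetal liver and 4.93% in bone marrow. Under 5 of 22 alternatives 1 was called lower in bone marrow (both other scalings, edgeR, DESeq2, and without ETV6-RUNX1 replicate 1), and 1 was in fetal liver with quantile normalization. Tap1, a peptide transporter, was 41.1 ± 4.51 and 332 ± 62.0 CPM in WT and ETV6-RUNX1 fetal liver, and 136 ± 18.1 and 332 ± 33.7 CPM in bone marrow. Ccl5, a chemokine, rose by 5.88 and 2.88, the serpin Serpina3f by 3.77 and 1.83, Serpina3g by 2.25 and 0.93, and Cd274, which encodes PD-L1, by 3.35 and 1.69. Nlrc5, an activator of MHC class I genes, rose by 3.58 in fetal liver and 0.66 in bone marrow. Its bone marrow call (limma adjusted p 0.0361) held under only 11 of 22 alternatives. Without WT bone marrow replicate 3 the bone marrow count was 9.

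Genes that load GTPases onto membranes or anchor them (autophagy conjugation, prenylation, ubiquitin and galectin genes) had lower median changes. Of 26 tested, 13 were called higher and 1 lower in fetal liver (24.8% and 18.3% of all tested genes), with a median of 0.37. In bone marrow 9 were called higher and 1 lower (14.4% and 4.93% of all tested genes), with a median of 0.26. The ubiquitin ligase gene Rnf213, which had the smallest p, rose from 31.5 ± 4.71 to 409 ± 80.4 CPM in fetal liver (3.65 ± 0.19 SE, limma adjusted p 9.63e-09). Lgals8 (1.85), Trim21 (1.68), Map1lc3a (1.48) and the autophagy receptor Sqstm1 (from 53.5 ± 4.55 to 109 ± 10.9 CPM) rose, and the ubiquitin-conjugating gene Ube2n fell (-0.69). The conjugation genes Atg3, Atg5 and Atg7 were not called in fetal liver (-0.12, -0.11 and 0.31), while Atg12 and Atg16l1 were called higher (0.44 and 0.58, under 15 and 13 of 22 alternatives). The prenylation genes Fnta, Fntb, Pggt1b, Rce1, Icmt and Zmpste24 were not called there. In bone marrow Fnta was called higher (0.59, under 12 of 22 alternatives). The count of higher genes in fetal liver was 8 without WT replicate 2, and that in bone marrow 5 without WT replicate 3 or ETV6-RUNX1 replicate 2. The count of lower genes was 2 in fetal liver under 6 of 22 alternatives, among them the fit without WT replicate 3. In bone marrow it was 3 with median-of-ratios scaling, edgeR or DESeq2, 2 with quantile normalization or array weights, and 0 with only the 6 libraries compared and without WT replicate 1, ETV6-RUNX1 replicate 1 or ETV6-RUNX1 replicate 2.

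Inflammasome genes, which act after GBPs expose bacteria, were counted in the same way. Of 12 tested of 16 listed, 10 were called higher in fetal liver (median log2 fold change 1.57) and 4 in bone marrow (0.38), against 24.8% and 14.4% of all tested genes. For 7 of the 12 the effect was called larger in fetal liver, against 5.56% of all tested genes. Zbp1, a nucleic acid sensor, went from 0.0941 ± 0.0365 to 120.1 ± 46.1 CPM in fetal liver (6.70 ± 0.52 SE, limma adjusted p 2.62e-07). Its WT fetal liver level lay near the floor of 3 reads, so the size of this log2 fold change depends on the added 1 CPM. Casp4, the sensor of bacterial lipopolysaccharide, rose by 1.90, Casp1 by 1.90, Casp8 by 1.49, the DNA sensor Aim2 by 1.64 and the pore-forming Gsdmd by 1.23. Casp1, Casp8 and Gsdmd were not called in bone marrow (limma adjusted p 0.164, 0.0545 and 0.078), and their interactions were called (adjusted p 0.00205, 0.00265 and 0.0167), that of Gsdmd not without WT bone marrow replicate 2 (0.0511). The bone marrow count was 1 without WT replicate 2 or 3, and 2 without ETV6-RUNX1 replicate 2 or 3.

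**Figure D5:**
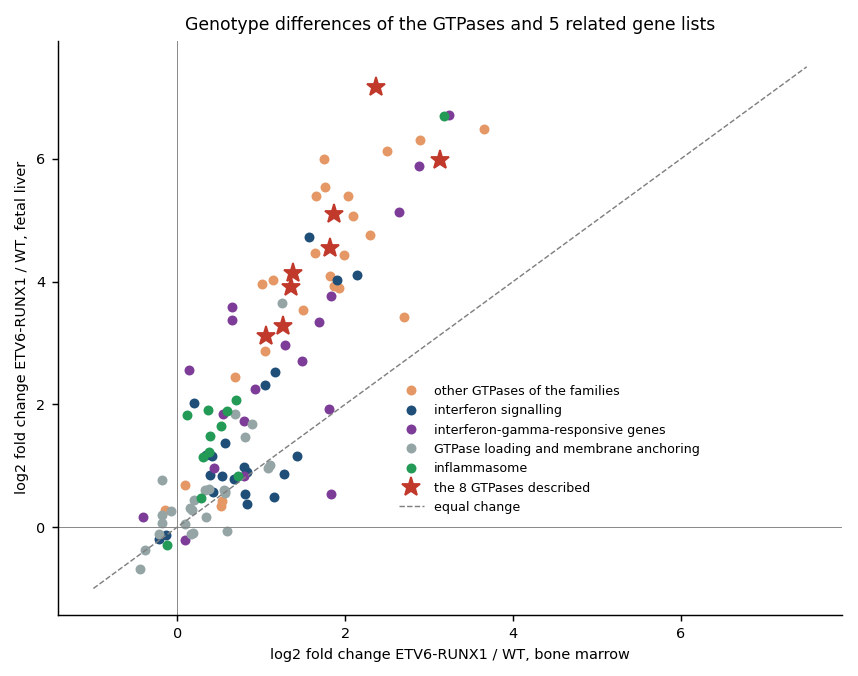
Log2 fold changes of ETV6-RUNX1 against WT in bone marrow (horizontal) and fetal liver (vertical) for the 8 GTPase genes (stars) and the tested genes of 5 related lists (points); the dashed line marks equal change. The stars lie between 1.06 and 3.13 in bone marrow and between 3.12 and 7.17 in fetal liver, all above the line.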

How the data were processed

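The authors deposited 1 table of CPM values, with genes in rows and 12 libraries in columns. The submitters' processing notes name STAR 2.5.1a, featureCounts 1.4.6-p5, Salmon 0.8.2, edgeR, limma and GRCm38; the strand setting and annotation are not given in the sources used here. Every deposited CPM value was a whole multiple of the value of 1 read (100% within 0.01 of a read), so reads were recovered for count tests. The table has 40757 rows; 276 that repeat the ID of an earlier row were dropped. The genes listed hold at least 99.8% of each total. Floors cover counting error only.

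The fit was limma 3.58.1 (trend, not robust) on log2(CPM + 1), with 4 group coefficients and 8 residual degrees of freedom. The code was run on simulated counts with the same dispersion in every gene and group. That run does not cover the unequal spread of these libraries. Alternatives changed the pseudocount, the filter, the scaling, the weights, the replicate block, the libraries in the fit and the test (edgeR 4.0.16 with TMM and DESeq2 1.42.0 on recovered reads). GENCODE M21 (GRCm38) gave positions, exon lengths and shared 100-base windows of transcripts; 40254 gene IDs (99.4%) matched. Promoters are from RefSeq (GRCm38.p6). The 8 genes are all named; of each list, at most 6 by smallest p in fetal liver (mean of at least 1 CPM in a group), plus the main signalling genes, of which 1 is not reported here. The genes and lists were chosen with earlier results of these data known. Per the labels' protocols, the sequenced libraries came from a strand-marking kit for small amounts of total RNA (SMARTer).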

Additional observations from a re-analysis of the deposited data

Results flagged for a closer look

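For each of the 8 GTPase genes, the effect of ETV6-RUNX1 differed between the sources by the test of the difference itself (limma interaction, adjusted p under 0.05). On the log2 scale, the effect in fetal liver minus that in bone marrow was 3.24 for Gbp2, 2.72 for Gbp3, 2.06 for Gbp7 and 2.86 for Gbp9. It was 2.01 for Irgm1, 2.55 for Irgm2, 2.75 for Igtp and 4.80 for Iigp1. With 0.1 CPM as the pseudocount, the value of Gbp9 was 3.59. In these differences the source, the age and the sex of the animals cannot be told apart.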

How the results depend on the processing

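Recomputed under the alternatives, 860 values of single GTPase genes kept their direction and their side of the threshold, 12 lost the call and 0 reversed. The lost calls were all between the sources, for Irgm1 in WT and for Gbp3, Gbp9 and Iigp1 in ETV6-RUNX1 cells; with all genes with reads in the fit, Gbp3 and Iigp1 had adjusted p of 0.0689 and 0.0923. The count of the 8 genes called between the ETV6-RUNX1 sources ran from 5 to 8 when single libraries were left out. Libraries with the same replicate number did not deviate together (r from -0.44 to 0.39 over 18 pairs, 7 above 0.1; 1 of 12 libraries correlated best with its own number), so the numbers were not taken as pairs. With the replicate block, the counts were 8 in all 5 comparisons. Over all genes, the median fold change (log2) went from 0.08 to -0.10 in fetal liver with quantile normalization. With median-of-ratios scaling it went from 0.13 to -0.0010 in bone marrow and from -0.16 to 0.00024 between the ETV6-RUNX1 sources; no direction of the 8 genes changed. Some counts of the smaller lists moved by over 1.5 times. In fetal liver the loading and anchoring count (13) was 8 with quantile normalization or edgeR. In bone marrow it was 4 to 9 over the alternatives (9), the signalling count 7 to 15 (13), the inflammasome count 1 to 5 (4, and 1 with edgeR, DESeq2 or median-of-ratios scaling). Depth did not limit the 8 genes, whose fewest reads were 33; of the 32 signalling genes, 22 passed the filter.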

Other observations

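A few listed genes had source patterns unlike the 8 GTPases and were picked after their values were seen. Fcgr1, an Fc receptor gene induced by interferon gamma, was 2.57 ± 0.506 CPM in WT and 20.9 ± 7.56 CPM in ETV6-RUNX1 fetal liver, but 1.33 ± 0.700 and 1.63 ± 1.04 CPM in bone marrow (interaction 2.42 ± 0.45 SE, limma adjusted p 0.00399). Cxcl9, a chemokine gene induced by interferon gamma, was 1.27, 7.70 and 3.34 CPM in ETV6-RUNX1 bone marrow and 0.840, 0 and 0.720 CPM in ETV6-RUNX1 fetal liver, and its interaction was not called (-1.29 ± 0.53 SE, adjusted p 0.139). Nlrp1b, which did not pass the filter, was 0.126, 6.27 and 2.85 CPM in ETV6-RUNX1 fetal liver replicates 1 to 3.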
